A study of Mus musculus with 6 samples.

Results

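The ligands of the transforming growth factor beta (TGF-beta) family and their binding protein follistatin were followed in brown adipose tissue (BAT) that lacks LETMD1, a mitochondrial matrix protein. The genes are Tgfb1, Tgfb2, Tgfb3, Inhba, Inhbb, Mstn, Bmp4, Bmp7 and Bmp8b, and Fst, which encodes follistatin and is an antagonist rather than a ligand. They were chosen by gene symbol, and all 10 were found among the 23282 rows of the deposited count files. RNA came from the whole interscapular BAT depot of 3 wild-type and 3 Letmd1 KO mice, each 5 weeks old, male and C57BL/6N. No treatment is given for either group. The Letmd1 KO mice were homozygous for a knockout-first allele that came from 1 embryonic stem cell clone and carries a lacZ and neomycin cassette between exons 2 and 3. The allele is present in every tissue, so that an effect in BAT cannot be told apart from an effect of LETMD1 loss elsewhere in the body.

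Members of the TGF-beta family are secreted as dimers that bring type I and type II receptor kinases together on the target cell. TGF-betas, activins and myostatin signal mainly through SMAD2 and SMAD3, and bone morphogenetic proteins (BMPs) mainly through SMAD1, SMAD5 and SMAD9. TGF-beta is stored in the matrix in a latent form and is known for driving fibrosis, whereas in brown fat BMP7 is known for promoting brown adipocyte differentiation and BMP8B for raising the thermogenic response. Follistatin binds activins and myostatin and keeps them from their receptors.

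The libraries held between 6669577 and 14574273 counts. QuantSeq primes from the poly(A) tail, and its counts do not scale with transcript length. Counts per 1000000 (CPM, here on libraries scaled by edgeR's TMM method) were set side by side between genes as levels of their rows. Such levels also depend on whether a row covers the 3′ end in use and on how reads of overlapping genes were counted. Neither was tested. A floor of 3 counts corresponded to between 0.176 and 0.397 CPM and covers counting error only. Letmd1 itself had 5658, 6490 and 5266 counts in wild-type and 0, 0 and 1 in Letmd1 KO mice, which matched all 6 labels. Markers of brown adipocytes were present in every mouse, and 8 of 9 were lower in Letmd1 KO BAT, where their summed level was between 11831 and 15720 CPM against 39383 to 44848 in wild-type BAT. Macrophage markers were higher for 12 of 13 genes and lower for 1, with a summed level between 307 and 450 CPM in wild-type and between 1536 and 2719 in Letmd1 KO BAT. Fibroblast and progenitor markers were higher for 8 of 8 genes (376 to 443 CPM against 901 to 1283 in sum). Skeletal muscle markers divided the wild-type mice, with summed levels of 89.7, 576 and 102 CPM against 535, 414 and 1502 in the Letmd1 KO mice, and 3 of the 16 tested were higher. Endothelial markers were higher for 1 and lower for 3 of 8 tested, pericyte and smooth muscle markers higher for 2 and lower for 1 of 6, lymphocyte markers higher for 2 of 2 and Schwann cell markers higher for 4 of 5. In none of these lists was a marker at 0 in all mice of a genotype. These shifts ran alongside the results below, and their part in them was not tested. In whole tissue, more cells of a type and more RNA per cell cannot be told apart.

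Of the 10 genes, 6 could be tested, and 3 of these 6 were higher in Letmd1 KO BAT by edgeR's quasi-likelihood test. Its p-values were adjusted after Benjamini and Hochberg over all 12995 genes tested. The higher genes were Fst, Inhba and Tgfb3, which code for an activin antagonist, an activin subunit and a TGF-beta. Among all genes tested, 46% passed the threshold, 23.7% as higher and 22.3% as lower. None of the 10 was lower, also at an unadjusted p under 0.05 and by DESeq2 and limma. Tgfb2, Inhbb and Bmp4 were tested and did not pass the threshold. Tgfb1, Mstn, Bmp7 and Bmp8b had too few counts to be tested. Over the 6 tested genes the median log2 fold change was 1.16, beside 0.033 over all genes tested. Inhba passed the filter on low counts through the Letmd1 KO libraries alone. The count of 3 and this median are thus a description and not evidence for the group.

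**Figure D1:**
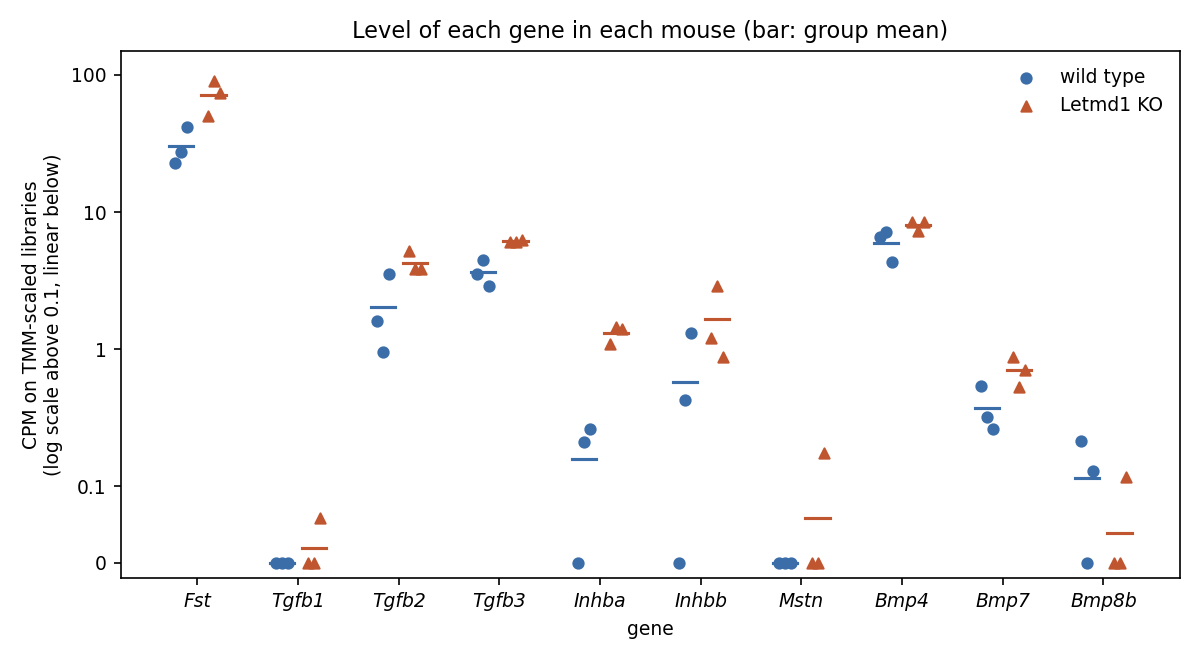
Level of each gene in each mouse as CPM on TMM-scaled libraries, on an axis that is logarithmic above 0.1 and linear below. Circles are wild-type mice, triangles Letmd1 KO mice and bars group means of 3 mice. Fst lies above all other genes, and for Fst, Tgfb2, Tgfb3, Inhba and Bmp4 every Letmd1 KO mouse lies above every wild-type mouse.

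Fst had the highest level of the 10 rows and the most counts behind its change. In the GENCODE annotation of GRCm38 it spans 114452290 to 114458951 of chromosome 13 (minus strand). Its level was 22.6, 27.6 and 41.5 CPM in wild-type and 50, 90.7 and 74.0 CPM in Letmd1 KO mice. Every Letmd1 KO mouse was above every wild-type mouse, as it was for 30.1% of all genes tested. The genotypes did not overlap for 57.3% of genes, and for 27.2% every Letmd1 KO mouse was the lower. The means were 30.6 ± 9.76 and 71.6 ± 20.4 CPM (SD, n = 3 each), a 2.35-fold increase (log2 fold change 1.23, standard error 0.26, adjusted p = 0.00412 by edgeR's quasi-likelihood test). With any 1 mouse left out the log2 fold change lay between 1.03 and 1.5 and the call held in 6 of 6 fits. It also held under each of the 7 other settings.

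Inhba encodes the beta A subunit of activin A. The gene spans 16011851 to 16031621 of chromosome 13 (plus strand). Wild-type mice had 0, 2 and 2 counts, each under the floor of 3, while Letmd1 KO mice had 10, 11 and 24. On the CPM scale this was 0, 0.212 and 0.261 against 1.10, 1.46 and 1.41, and the genotypes did not overlap. The ratio of the summed and scaled counts was 8.82, with an exact 95% interval of 3.21 to 33.8 for counting error only. The adjusted p was 0.00753 by edgeR's quasi-likelihood test. Its fitted log2 fold change of 3.02 (standard error 0.72) depends on the prior count and sets no bound. The row passed the filter on low counts through the Letmd1 KO libraries alone. Its adjusted p-values therefore describe the row and are no independent support for a rise. With this limit, the call held with any 1 mouse left out (adjusted p between 0.0140 and 0.0324 in 6 edgeR fits), while the log2 fold change was 2.43 without wild-type replicate 1. It was lost under quantile normalization with limma, where the log2 fold change was 1.05 (adjusted p = 0.0993). The 3′ end of Inhba also lies inside an annotated antisense transcript, Gm48444, so that without strand reads of both could not be told apart. Inhba is thus a transcript that was near the detection limit in wild-type BAT and was counted in every Letmd1 KO mouse at a low level.

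Inhbb, which encodes the beta B subunit of activin B, varied more among mice than Inhba. The gene spans 119415465 to 119422248 of chromosome 1 (minus strand). It had 0, 4 and 10 counts in wild-type and 11, 22 and 15 in Letmd1 KO mice. The levels were 0, 0.424 and 1.30 CPM against 1.21, 2.91 and 0.882 CPM, so that wild-type replicate 3 lay above Letmd1 KO replicates 1 and 3. The log2 fold change was 1.52 (standard error 0.88), and the adjusted p of 0.191 by edgeR's quasi-likelihood test did not pass the threshold. It ran from 0.89 without Letmd1 KO replicate 2 and 0.90 without wild-type replicate 1 to 2.82 without wild-type replicate 3 (adjusted p = 0.0513 by edgeR), and no fit passed. Within a mouse, where the scaling between libraries cancels, Inhbb made up 66.7% and 83.3% of the counts of both activin subunits in the wild-type mice that had any, and 52.4%, 66.7% and 38.5% in the Letmd1 KO mice. The ranges touched, and the two-sided exact permutation p was 0.4, and 2 mice against 3 cannot go below 0.2.

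The regions just upstream of both activin subunit genes are shown, because the subunits share a signalling role while only Inhba passed the test. Each is the 250 bases before the RefSeq start site (GRCm38.p6), written 5′ to 3′ on the strand of the gene. They are chr13:16011601-16011850 on the plus strand for Inhba and chr1:119422249-119422498 on the minus strand for Inhbb.
Inhba: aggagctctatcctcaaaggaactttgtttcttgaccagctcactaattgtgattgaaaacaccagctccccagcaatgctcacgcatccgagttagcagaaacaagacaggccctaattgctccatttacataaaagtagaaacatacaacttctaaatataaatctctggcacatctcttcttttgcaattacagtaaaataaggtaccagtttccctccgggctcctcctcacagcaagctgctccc
Inhbb: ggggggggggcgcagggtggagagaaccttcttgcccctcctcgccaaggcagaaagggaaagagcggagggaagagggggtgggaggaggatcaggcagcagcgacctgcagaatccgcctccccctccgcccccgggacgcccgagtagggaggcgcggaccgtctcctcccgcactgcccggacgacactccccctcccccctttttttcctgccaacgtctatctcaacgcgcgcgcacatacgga
The Inhba region had a GC content of 43.2% and the Inhbb region 68.0%, beside a median of 52.4% over all RefSeq promoters of this length. No match was found in either region, on either strand, to the SMAD repeat GTCTAGAC, the SMAD box CAGAC, the cyclic AMP response element TGACGTCA, the AP-1 motif TGANTCA or the amino acid response element TGATGNAA. These letters occur in 0.167%, 42.2%, 1.55%, 6.75% and 3.45% of all 32851 such promoters.

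Tgfb3 encodes TGF-beta 3 and, with Tgfb1 not measurable, had the highest mean level of the TGF-beta genes that could be ranked. The gene spans 86056745 to 86079041 of chromosome 12 (minus strand). Its level was 3.56, 4.45 and 2.87 CPM in wild-type and 6.04, 6.09 and 6.23 CPM in Letmd1 KO mice. The Letmd1 KO mice lay close together and all above the wild-type mice. The means were 3.63 ± 0.794 and 6.12 ± 0.0995 CPM (SD, n = 3 each), and the log2 difference was 0.75 ± 0.27 (SE, adjusted p = 0.0462 by edgeR's quasi-likelihood test). This call stood close to the threshold. It was kept in 1 of the 6 fits that left out a mouse, the fit without wild-type replicate 2 (adjusted p = 0.0495), and in the other fits the adjusted p was between 0.0830 and 0.115. It was also lost with DESeq2 (adjusted p = 0.0717), with limma after quantile normalization (0.358), with no filter (0.0661) and with the replicate number as a block (0.0774). The 3′ end of Tgfb3 lies inside Ttll5, a gene of the opposite strand with 110 to 313 counts per mouse. The sources used here do not say if the authors counted by strand, so that reads of both genes cannot be told apart there. The log2 fold change of Ttll5 was 0.31 (adjusted p = 0.175 by edgeR's quasi-likelihood test).

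Tgfb2, which encodes TGF-beta 2, had a lower mean level. The gene spans 186622792 to 186705989 of chromosome 1 (minus strand). Its level was 1.62, 0.954 and 3.52 CPM in wild-type and 5.16, 3.84 and 3.82 CPM in Letmd1 KO mice. The genotypes did not overlap, and wild-type replicate 3 lay nearer to the Letmd1 KO mice than to the other wild-type mice. The log2 fold change of 1.09 (standard error 0.46) was larger than that of Tgfb3 but did not pass the threshold (adjusted p = 0.0798 by edgeR's quasi-likelihood test). Without wild-type replicate 3, the highest of the wild-type mice, it was 1.71 and passed (adjusted p = 0.0111), and it also passed with scaling by library size alone (1.52, adjusted p = 0.0177). The 250 bases before its RefSeq start site are shown because they carry 2 SMAD boxes (CAGAC, in capitals), at bases -221 and -204 counted from the start site. The region is chr1:186705990-186706239 on the minus strand, with a GC content of 53.6%.
Tgfb2: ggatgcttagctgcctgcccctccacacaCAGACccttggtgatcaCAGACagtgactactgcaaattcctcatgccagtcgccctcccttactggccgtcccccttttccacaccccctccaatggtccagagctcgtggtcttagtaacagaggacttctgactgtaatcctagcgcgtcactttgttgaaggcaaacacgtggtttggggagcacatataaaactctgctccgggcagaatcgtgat
SMAD boxes are not particular to Tgfb2 among these genes. The region of Mstn also has 2, at bases -244 and -120, and an AP-1 match (TGAATCA) at -170. The region of Bmp8b has a SMAD box at -126. As the SMAD box occurs in 42.2% of all promoters of this length, its presence is only a description.

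Tgfb1, the TGF-beta most often linked to macrophages and fibrosis, was not measurable in these libraries. The gene spans 25687002 to 25705077 of chromosome 7 (plus strand). Its row was at 0 in every wild-type mouse and in Letmd1 KO replicates 1 and 2, and held 1 count in Letmd1 KO replicate 3. It therefore made up 0% of the counts of the 3 TGF-beta genes in 5 mice and 0.581% in the other, of between 48 and 172 counts per mouse (two-sided exact permutation p = 1, and 3 mice against 3 cannot go below 0.1). With 1 count over all mice this test could not have found a difference, and nothing is concluded from it. A count of 0 allows a level of up to 0.397 CPM in the shallowest library. Whether the row covers the 3′ end that the tissue uses was not tested.

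Mstn encodes myostatin, which is known for limiting muscle mass. The gene spans 53061640 to 53068079 of chromosome 1 (plus strand). It had 0 counts in 5 mice and 3 in Letmd1 KO replicate 3, the mouse with the highest summed level of skeletal muscle markers (1502 CPM). Myostatin was thus at or under the floor in every mouse.

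Of the BMP genes, only Bmp4 was counted well in BAT. The gene spans 46383520 to 46390669 of chromosome 14 (minus strand), and BMP4 is known for acting on adipocyte commitment. Its level was 6.58, 7.10 and 4.30 CPM in wild-type and 8.46, 7.28 and 8.47 CPM in Letmd1 KO mice, without overlap. Wild-type replicate 2 and Letmd1 KO replicate 2 lay close together. The log2 fold change was 0.43 (standard error 0.25) and did not pass the threshold (adjusted p = 0.196 by edgeR's quasi-likelihood test). With scaling by library size alone it was 0.84 and passed (adjusted p = 0.0198), while the median over all genes then stood at 0.45.

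Bmp7, on chromosome 2 from 172868012 to 172940321, had 5, 3 and 2 counts in wild-type and 8, 4 and 12 in Letmd1 KO mice. The levels of 0.539, 0.318 and 0.261 CPM against 0.879, 0.529 and 0.706 CPM overlapped by 1 mouse of each genotype. The ratio of summed and scaled counts was 1.88, with an exact 95% counting interval of 0.867 to 4.41. Bmp8b, on chromosome 4 from 123105165 to 123132099, had 2, 0 and 1 counts in wild-type and 0, 0 and 2 in Letmd1 KO mice. All 6 mice were under the floor for Bmp8b, so that a difference was not detectable at this depth. Its 3′ end lies inside Ppie on the opposite strand, and its near neighbour in sequence, Bmp8a, had between 0 and 5 counts per mouse.

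The order of levels was alike in both genotypes for the leading genes. In wild-type BAT it ran from Fst (30.6 CPM) to Bmp4 (5.99), Tgfb3 (3.63), Tgfb2 (2.03), Inhbb (0.576), Bmp7 (0.373), Inhba (0.158) and Bmp8b (0.115). Tgfb1 and Mstn had 0 counts there and were not given a place. Only the range of Fst over the wild-type mice lay wholly above that of the next gene, and the ranges of all later neighbours overlapped or were at 0. Bmp4 was still above Tgfb3 within each wild-type mouse. In Letmd1 KO BAT it ran from Fst (71.6 CPM) to Bmp4 (8.07), Tgfb3 (6.12), Tgfb2 (4.28), Inhbb (1.67), Inhba (1.32) and Bmp7 (0.705). There the ranges of Fst, Bmp4, Tgfb3 and Tgfb2 each lay above that of the next gene, Inhbb and Inhba overlapped, and the range of Inhba lay above that of Bmp7. In wild-type BAT the mean of Inhba was below that of Bmp7, with ranges that touched.

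**Figure D2:**
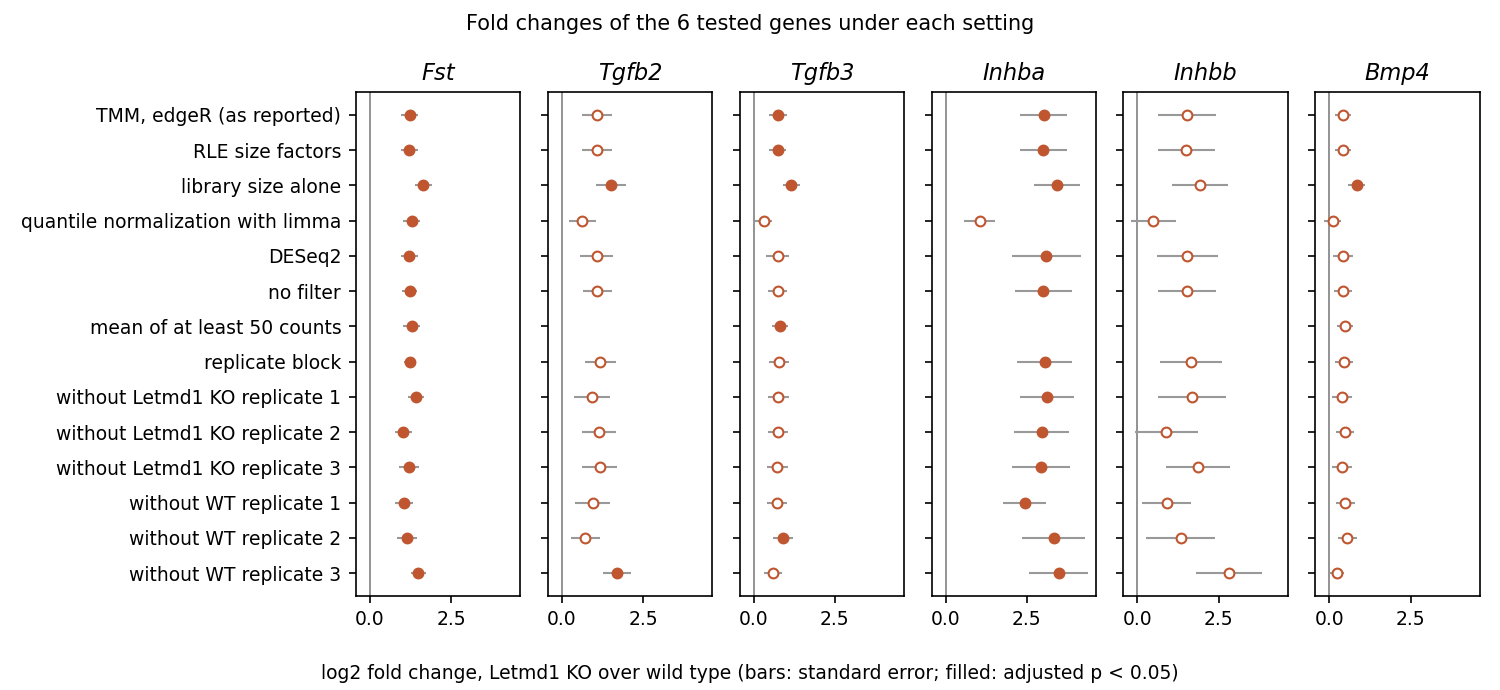
Log2 fold change (Letmd1 KO over wild type) of the 6 genes tested under each setting, with standard errors as bars. Filled circles passed an adjusted p of 0.05, open circles did not, and a gene has no circle where the filter removed it. Fst is filled in every row, Inhba in every row but quantile normalization, and Tgfb3 in few rows.

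The receptors of these ligands are type I and type II serine/threonine kinases. The co-receptor Tgfbr3 was counted with them here. Of the 10 receptor genes tested, 3 were lower in Letmd1 KO BAT and 0 higher by edgeR's quasi-likelihood test, beside 22.3% lower and 23.7% higher among all genes, so that the count is no result about receptors as a group. With library size alone 4 were higher and 2 lower, and with a mean of at least 50 counts 1 was higher and 2 lower. The main counts were also found with DESeq2 and with limma after quantile normalization. At an unadjusted p under 0.05, 1 receptor gene was higher. Tgfbr2, the type II receptor of TGF-beta, had 95, 129 and 184 CPM in wild-type and 50.6, 59.0 and 56.2 CPM in Letmd1 KO mice. All Letmd1 KO mice were below all wild-type mice (log2 fold change -1.30, standard error 0.21, adjusted p = 0.00101 by edgeR's quasi-likelihood test). Acvr1c encodes ALK7, a type I receptor that is known for its high level in adipocytes. It had 235, 257 and 280 CPM in wild-type and 143, 157 and 128 CPM in Letmd1 KO mice, a 1.80-fold decrease (adjusted p = 0.000430 by edgeR's quasi-likelihood test). Acvr2b, a type II receptor of activins and myostatin, fell from 4.53 ± 0.399 to 2.0 ± 0.481 CPM (SD, n = 3 each, adjusted p = 0.0150 by edgeR's quasi-likelihood test). The Acvr2b call was lost with library size alone (log2 fold change -0.75) and without Letmd1 KO replicate 3 (-1.12).

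The other receptor genes did not pass the threshold by edgeR's quasi-likelihood test. Acvrl1, the endothelial type I receptor ALK1, came closest, with 14.9 ± 2.34 and 20.1 ± 0.124 CPM (SD, n = 3 each) and a log2 fold change of 0.43 (adjusted p = 0.0541). It passed as higher with a mean of at least 50 counts (0.48, adjusted p = 0.0327) and with library size alone (0.85, adjusted p = 0.00231). Tgfbr1, the type I partner of Tgfbr2, stood at 11.6 CPM in wild-type and 13.9 CPM in Letmd1 KO BAT (log2 fold change 0.26, standard error 0.28), beside means of 136 and 55.2 CPM for Tgfbr2. The co-receptor Tgfbr3 had -0.02 and the type II receptors Acvr2a and Bmpr2 0.15 and -0.12. The BMP type I receptors Bmpr1a and Acvr1 had -0.33 and 0.13, and for Bmpr1a every Letmd1 KO mouse was below every wild-type mouse. The sign turned under another setting for Tgfbr3, Bmpr1a, Bmpr2 and Acvr1. Acvr1b and Bmpr1b had at most 13 and 4 counts in a mouse and were not tested. Of the co-receptors, 6 of 7 were tested, with 0 higher and 1 lower, beside 23.7% and 22.3% of all genes tested. The lower gene was Rgma, a BMP co-receptor, which fell from 40.2 ± 17.0 to 18.9 ± 2.83 CPM (SD, n = 3 each, adjusted p = 0.0101 by edgeR's quasi-likelihood test). The Rgma call was lost with library size alone (log2 fold change -0.66), where 2 co-receptors were higher. At an unadjusted p under 0.05, and with DESeq2 and limma, the number of co-receptors higher was 1, 0 and 0.

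**Figure D3:**
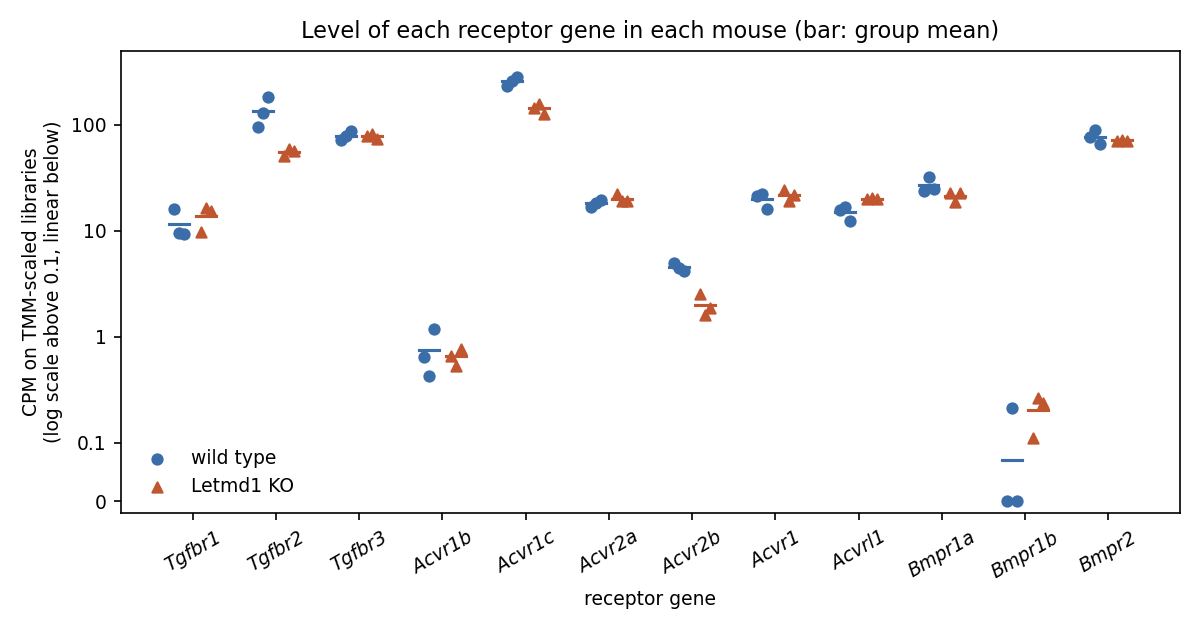
Level of each receptor gene in each mouse as CPM on TMM-scaled libraries, on an axis that is logarithmic above 0.1 and linear below, with circles for wild-type mice, triangles for Letmd1 KO mice and bars for group means. Letmd1 KO mice lie below wild-type mice for Tgfbr2, Acvr1c, Acvr2b and Bmpr1a and above them for Acvrl1, while the other receptors overlap. Bmpr1a and Acvrl1 did not pass the threshold.

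Secreted antagonists other than Fst were mostly higher. Of the 11 tested among 18, 9 were higher and 1 lower, beside 23.7% and 22.3% of all genes tested. The median log2 fold change was 1.34, beside 0.033 over all genes. The number higher was 7 with limma after quantile normalization and 7 without Letmd1 KO replicate 1. The median was 0.95 without Letmd1 KO replicate 2. Among the 9 is Nog, which encodes the BMP antagonist noggin and passed the filter on low counts through the Letmd1 KO libraries alone (5, 0 and 0 counts against 13, 15 and 33), so that count and median are a description. Chordin-like 1 (Chrdl1), a BMP antagonist, had 2.59, 3.39 and 3.91 CPM in wild-type and 13.4, 21.8 and 8.06 CPM in Letmd1 KO mice, without overlap (log2 fold change 2.11, adjusted p = 0.00168 by edgeR's quasi-likelihood test). Follistatin-like 3 (Fstl3), which like follistatin binds activins and myostatin, rose from 4.24 ± 2.43 to 12.4 ± 2.87 CPM (SD, n = 3 each, adjusted p = 0.00707 by edgeR's quasi-likelihood test). Dand5, a member of the DAN family of antagonists, fell from 12.3 ± 1.15 to 5.78 ± 1.61 CPM (SD, n = 3 each, adjusted p = 0.00612 by edgeR's quasi-likelihood test). The fibroblast and progenitor markers moved the same way as this list, in 8 of 8 genes, and their part in it was not tested.

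Most other ligands of the family had few or no counts in BAT. Of 24 such genes, 8 had no counts in any mouse and 5 were tested. Of these 5, 3 were higher and 1 lower, beside 23.7% and 22.3% of all genes tested. Gdf15 is among the 3 and passed the filter on low counts through the Letmd1 KO libraries alone. Gdf15, a stress hormone distant from the rest of the family, stood apart, with 0.431, 0.106 and 0.261 CPM in wild-type and 208, 261 and 215 CPM in Letmd1 KO mice (adjusted p = 7.14e-08 by edgeR's quasi-likelihood test). Gdf5, a BMP-type ligand, had 2.16, 2.86 and 8.34 CPM in wild-type and 0.549, 0.397 and 1.0 CPM in Letmd1 KO mice (log2 fold change -2.64, adjusted p = 0.00733 by edgeR's quasi-likelihood test). Without wild-type replicate 3, the highest mouse, it was -1.84 (adjusted p = 0.0216 by edgeR). Gdf9, known from the oocyte, had 1.83, 0.106 and 0.261 CPM against 6.15, 2.38 and 3.47 CPM (adjusted p = 0.0281 by edgeR's quasi-likelihood test). The Gdf9 call ended in 4 of the 6 fits that left out a mouse, all but those without wild-type replicate 1 and Letmd1 KO replicate 2 (log2 fold change between 1.85 and 2.5, against 2.40 with all mice). Without wild-type replicate 1, the highest of its group, it was 4.41.

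Genes that store and activate TGF-beta were higher for 8 and lower for 2 of the 14 tested, beside 23.7% and 22.3% of all genes tested. Their median log2 fold change was 0.62, beside 0.033 over all genes. The number higher was 5 without wild-type replicate 1 or without Letmd1 KO replicate 1, and 10 with library size alone. Among the 8 is Fbn2, a fibrillin, which passed the filter through the Letmd1 KO libraries alone (4, 3 and 0 counts against 35, 23 and 29). Nrros, which holds latent TGF-beta on myeloid cells, had 11.9, 11.5 and 18.4 CPM in wild-type and 52.1, 67.5 and 55.6 CPM in Letmd1 KO mice (4.22-fold, adjusted p = 5.45e-05 by edgeR's quasi-likelihood test). The macrophage markers rose in the same mice, and their part in the change of Nrros was not tested. Fbn1, the microfibril protein to which latent complexes attach, rose from 23.0 ± 4.39 to 75.1 ± 2.49 CPM (SD, n = 3 each, adjusted p = 3.23e-05 by edgeR's quasi-likelihood test). Ltbp2, a relative of the latent TGF-beta binding proteins, fell 8.32-fold, from 66.3 ± 11.4 to 7.94 ± 0.241 CPM (SD, n = 3 each, adjusted p = 3.35e-06 by edgeR's quasi-likelihood test). Furin, a protease that cleaves the precursors of these ligands, fell from 139 ± 11.4 to 61.1 ± 9.96 CPM (SD, n = 3 each, adjusted p = 0.000135 by edgeR's quasi-likelihood test).

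Inside the cell the picture was mixed. Of the 13 tested Smads and Smad regulators, 3 were higher and 3 lower, near the 23.7% higher and 22.3% lower among all genes tested. With library size alone 6 were higher and 1 lower, and without Letmd1 KO replicate 3 the number lower was 1. The median of -0.11 turned to 0.31 with library size alone, 0.02 under the filter of 50 counts on average and 0.05 without wild-type replicate 1. Tgif1, a transcriptional corepressor of SMAD2 and SMAD3, rose from 4.96 ± 1.92 to 36.8 ± 6.14 CPM (SD, n = 3 each, adjusted p = 4.65e-05 by edgeR's quasi-likelihood test), and the ubiquitin ligase gene Smurf1 rose 1.75-fold (adjusted p = 0.00104 by the same edgeR test). Pmepa1, a feedback inhibitor that TGF-beta is known to induce, fell from 731 ± 67.6 to 331 ± 107.6 CPM (SD, n = 3 each, adjusted p = 0.00172 by edgeR's quasi-likelihood test). Smad6, the inhibitory Smad of BMP signalling, fell from 23.9 ± 6.61 to 12.1 ± 3.81 CPM (SD, n = 3 each, adjusted p = 0.0133 by edgeR's quasi-likelihood test), a call lost with library size alone (log2 fold change -0.56) and without Letmd1 KO replicate 3 (-0.82).

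Target genes of both branches were counted next. Of 15 tested TGF-beta and activin targets, 11 were higher and 0 lower, beside 23.7% and 22.3% of all genes tested. The median log2 fold change was 1.02, beside 0.033 over all genes. None of the 15 was lower at an unadjusted p under 0.05 or with DESeq2 or limma. The 4 listed targets that did not pass were Tagln (log2 fold change -0.03), Cnn1 (0.11), Lox (0.17) and Tgfb1i1 (0.22). These counts hold for the genes listed only. Pmepa1, which TGF-beta is known to induce, was counted with the Smad regulators and was lower (log2 fold change -1.15). Skil of that list was also lower (-0.77, adjusted p = 0.0335 by edgeR's quasi-likelihood test), though the genotypes overlapped. Smad7 had -0.48 and did not pass, with every Letmd1 KO mouse below every wild-type mouse. In the same list 3 genes were higher. Fn1, which encodes the matrix protein fibronectin, had 23.9, 19.1 and 12 CPM in wild-type and 102, 98.5 and 90.9 CPM in Letmd1 KO mice (5.26-fold, adjusted p = 3.41e-05 by edgeR's quasi-likelihood test). Timp1, an inhibitor of matrix metalloproteinases, rose from 1.42 ± 0.548 to 6.34 ± 1.03 CPM (SD, n = 3 each, log2 fold change 2.13, adjusted p = 0.00115 by edgeR's quasi-likelihood test), and its log2 fold change was 1.54 with limma after quantile normalization. These targets include collagens and other fibroblast genes, and fibroblast markers, none of which is in this list, were higher in the same mice. Their part in the result was not tested. Of 8 tested BMP targets, 0 were higher and 2 were lower, near the 22.3% lower among all genes, with a median log2 fold change of -0.40 that was 0.030 with library size alone. The number lower was 1 with library size alone, with limma and without Letmd1 KO replicate 3, and 3 without wild-type replicate 3. None was higher at an unadjusted p under 0.05 or with DESeq2 or limma. Id1, an inhibitor of differentiation that BMP induces, fell from 155 ± 10.9 to 72.4 ± 14.1 CPM (SD, n = 3 each, adjusted p = 0.000352 by edgeR's quasi-likelihood test). Id3, of the same kind, had 161 ± 8.03 and 114.9 ± 22.2 CPM (SD, n = 3 each, log2 fold change -0.49, adjusted p = 0.0182 by edgeR's quasi-likelihood test), a call lost with library size alone (-0.07), with limma after quantile normalization (-0.30) and without Letmd1 KO replicate 3 (-0.43). Whether the counts of both target lists differ from each other was not tested.

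**Figure D4:**
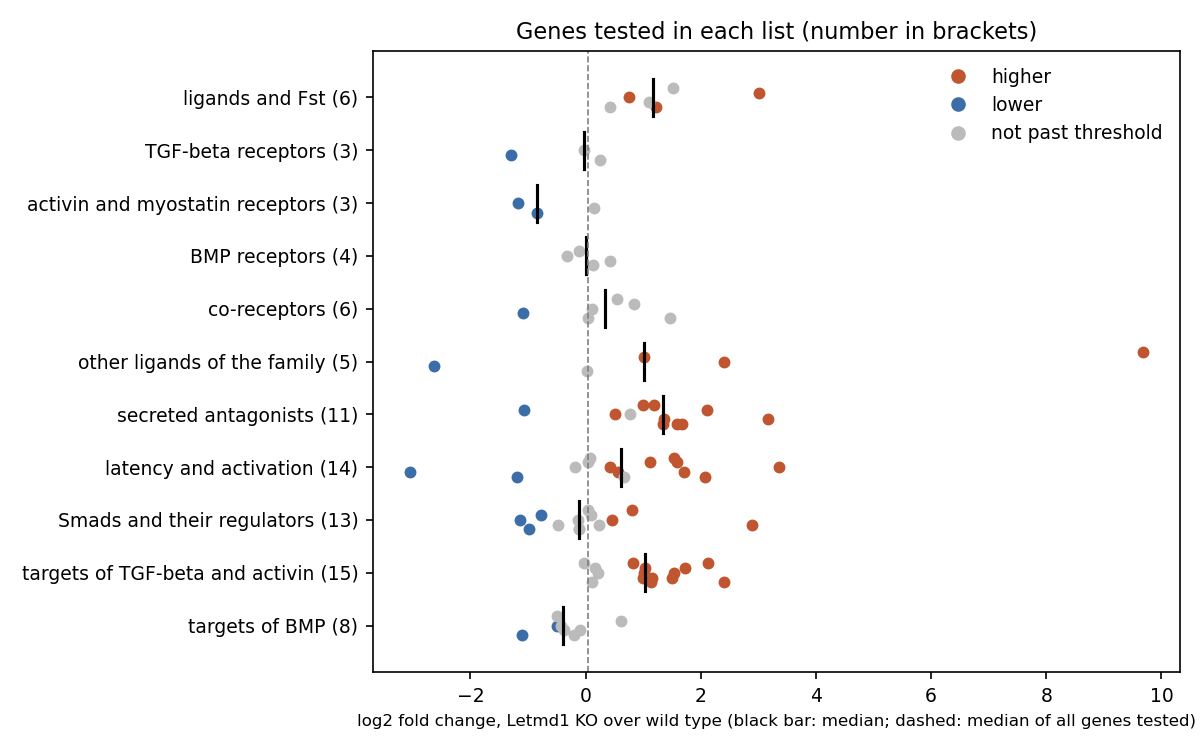
Log2 fold change (Letmd1 KO over wild type) of each tested gene in each list, with the number tested in brackets, the list median as a black bar and the median of all genes tested (0.033) as a dashed line. The medians of the ligands with Fst (1.16), of secreted antagonists (1.34) and of TGF-beta and activin targets (1.02) lie to the right, and Gdf15 is the point at the far right.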

How the data were processed

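Per the labels and the study's methods, RNA of BAT was made into QuantSeq 3′ libraries and read as single-end reads of 75 bases. The authors aligned reads with Bowtie2 to mm10 (the build in the submitters' processing notes), counted unique and multiple alignments with Bedtools and deposited raw counts per gene symbol. Tool versions, annotation and use of strand are not given in the sources used here. The quantile normalization that the study names is not in the deposited counts.

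Counts were tested in R 4.3.3 with edgeR 4.0.16 (quasi-likelihood test, TMM factors from 0.852 to 1.17, default filter with count and total minimums of 10 and 15, Benjamini-Hochberg adjustment, threshold 0.05). The files list 23282 rows, among them 5588 without counts, and 12995 were tested. The standard error is the log2 fold change over the root of the test's F. Limma 3.58.1 and DESeq2 1.42.0 served as alternatives, with a prior count of 2 for log2 CPM in limma. Further alternatives were RLE factors, library size alone, no filter, a mean of at least 50 counts, the replicate number as a block and leaving out each mouse. Shares within a mouse were compared by exact permutation tests (two-sided). The steps were tested on simulated counts in which 200 of 12995 genes changed, equally in both directions. In the data 46% of genes passed the threshold, so the simulation does not cover the choice of scaling.

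Mice of a genotype differed from each other by more than sampling noise in every pair (chi-square over its degrees of freedom 11.5 to 34.0). The genes, the 10 pathway lists and 8 marker lists, the tests and the alternatives were chosen with earlier results of these data known. Named beside the 10 genes were all receptors and, per other list, up to 2 genes in each direction with the largest change past the threshold, 20 or more counts on average and genotypes that did not overlap. Ttll5, Ppie, Bmp8a, Gm48444, Gm15217, Nog, Fbn2, Skil, Smad7, Tagln, Cnn1, Lox and Tgfb1i1 were named after their values were seen. They are not among the named genes counted under the alternatives. Positions came from GENCODE vM21 (GRCm38, the same assembly as mm10) and promoters from RefSeq (GRCm38.p6), which held 7 of the 10 genes and not Fst, Tgfb3 and Bmp7.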

Additional observations from a re-analysis of the deposited data

How the results depend on the processing

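Library size alone moved the all-gene median from 0.033 to 0.45 (log2), 5 of the 10 genes were higher in place of 3, and the median of the tested ones was 1.58 in place of 1.16. Under quantile normalization with limma, which changes scaling and test together, 1 gene was higher and the median was 0.56. With a mean of at least 50 counts, which removes Tgfb2, Inhba and Inhbb by construction, the median was 0.80. With each mouse left out, 2 to 3 genes were higher and the median was between 0.93 and 1.60, the ends being the fits without wild-type replicates 1 and 3. The number lower stayed at 0 throughout.

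No label says that the replicate numbers pair the mice. The deviations of same-numbered mice correlated at 0.069, -0.11 and -0.087, and those of other pairs between -0.093 and 0.19. With 3 mice per group these values cannot exclude a pairing. With the replicate number as a block 2 of the 10 genes were higher, as the call of Tgfb3 was lost. No other call among the named genes changed with the block.

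The share of Tgfb1, which rests on 1 count, differed by 0.194 percentage points, and by 0 to 0.291 with each mouse left out. As a log2 ratio of counts plus 0.5 it reversed to -0.61, since with 0 counts the ratio follows the other TGF-beta genes. The share of Inhbb differed by -22.5 percentage points, and by -30.8 to -14.2 with each mouse left out.

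Reversals among named genes concerned receptors that did not pass the threshold. With library size alone Tgfbr3 was 0.40, Bmpr1a 0.089 and Bmpr2 0.29. Under quantile normalization Tgfbr3 was 0.13 and Bmpr2 0.034. With a mean of at least 50 counts Tgfbr3 was 0.030. With each mouse left out Tgfbr3 was between -0.088 and 0.037, with reversals without wild-type replicate 3 (0.037) and Letmd1 KO replicate 3 (0.019). Acvr1 was between -0.0027, without wild-type replicate 3, and 0.213. The cause was not tested. Of 448 values of 35 named genes under an alternative, 410 kept their direction and side of the threshold, 22 lost a call, 7 gained one and 9 reversed. Tgfb1, Mstn, Bmp7 and Bmp8b had too few counts for a test. Why Tgfb1 did was not tested.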

Other observations

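The row of Tgfb1 held 1 count over all 6 mice, while Tgfb2 and Tgfb3 together held between 48 and 171 counts per mouse and the latency genes Nrros and Fbn1 at least 108 counts in each. In the GENCODE annotation no other gene overlaps Tgfb1. Of the 426 windows of 75 bases in the last 500 bases of its coding transcripts, 0 occur in a transcript of another gene, and the same held for the windows of each of the other 9 genes. No explanation was tested.

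The 3′ ends of 4 of the 10 genes (Tgfb3, Inhba, Bmp4 and Bmp8b) lie inside an annotated gene of the opposite strand. For Inhba this is Gm48444, an antisense transcript without a row in the count files, and for Bmp4 it is Gm15217, with 0 to 13 counts per mouse.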
